A study of Homo sapiens with 4 samples.

Results

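The Iroquois homeobox genes IRX1, IRX2, IRX3, IRX4, IRX5 and IRX6 and their relative MKX were taken by name, as 7 of the 20090 protein-coding genes in GENCODE 44 on GRCh37. Binding was taken from peaks whose summit lay in a gene body extended by 250 kb on each side, or in the interval between neighbouring genes of the same cluster. By this rule 11 of the 5169 reproducible MEIS1/2 sites belonged to the 7 genes, as did 66 of 36796 peaks in replicate 1 and 97 of 47449 peaks in replicate 2. Chromosome 5 held 4 of the sites, chromosome 10 held 2 and chromosome 16 held 5.

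The cells were neural stem cells of human origin (hNSC), bought as a culture and left untreated, and MEIS1/2 binding in them was measured by ChIP-seq. The MEIS ChIP group comprised 2 samples, from batches of cells processed in parallel, and the Input group comprised 2 samples of sheared chromatin that was not immunoprecipitated. The immunoprecipitation combined antibodies against MEIS1/2 and MEIS1, so a peak does not tell the proteins apart. No expression was measured in these files, and neither the identity of the cells nor the activity of the genes could be checked here. A reproducible site is an entry of the list that the authors made from both replicates with the irreproducible discovery rate (IDR), and a peak is a region called at a p-value of 0.01 in one sample. Peak strength is given below as −log10 p and as fold enrichment over Input at the summit, each with its value in replicate 1 and in replicate 2.

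Iroquois proteins and MKX are transcription factors with a TALE homeodomain, a form that MEIS and PBX proteins share. TALE proteins carry additional residues in a loop of the homeodomain, and MEIS proteins commonly bind DNA together with PBX partners. The Iroquois genes lie in clusters of 3, separated by long stretches with few other genes, and Iroquois factors are known for setting boundaries between progenitor domains in the neural tube. IRX4, IRX2 and IRX1 lie in this order on chromosome 5, and IRX3, IRX5 and IRX6 on chromosome 16, whereas MKX lies alone on chromosome 10.

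Each site is named here by its nearest member and the distance of its summit from the transcription start site (TSS) of that gene's canonical transcript, with minus for upstream and plus for downstream along the gene. The sequences at the summits of the 3 strongest sites and of the site in the intron of ODAD2 are shown first, because they differ in how the MEIS core string TGACAG sits at the summit. The sequences are the plus strand of GRCh37, at chr5:2206541-2206660 for IRX4 −324 kb, chr5:2533682-2533801 for IRX2 +218 kb, chr16:55534004-55534123 for IRX6 +176 kb and chr10:28146717-28146836 for MKX −112 kb, and capitals mark TGACAG or its reverse complement.
IRX4 −324 kb: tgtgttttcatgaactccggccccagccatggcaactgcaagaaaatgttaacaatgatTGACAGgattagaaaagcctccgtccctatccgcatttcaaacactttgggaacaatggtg
IRX2 +218 kb: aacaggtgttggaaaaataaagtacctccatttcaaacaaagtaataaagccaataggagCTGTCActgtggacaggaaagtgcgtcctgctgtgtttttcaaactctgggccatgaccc
IRX6 +176 kb: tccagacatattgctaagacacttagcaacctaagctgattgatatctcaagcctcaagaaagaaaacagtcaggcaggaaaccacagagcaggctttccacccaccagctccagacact
MKX −112 kb: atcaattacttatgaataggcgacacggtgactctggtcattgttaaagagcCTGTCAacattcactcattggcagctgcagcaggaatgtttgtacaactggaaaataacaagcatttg

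At IRX4 −324 kb the core string was centred 1.5 bp from the summit and formed part of the longer composite PBX-MEIS string. The string was centred 2.5 bp from the summit at IRX2 +218 kb and 5.5 bp at MKX −112 kb. At IRX6 +176 kb no TGACAG lay in the 500 bp around the summit, although this was the second strongest of the 11 sites.

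With at least 1 reproducible site in the extended gene body, 6 of the 7 members had binding nearby, beside 47.7% of the 20083 other protein-coding genes. IRX3 had 3 sites, MKX had 2, IRX1, IRX2, IRX4 and IRX6 had 1 each, and IRX5 had 0. The remaining 2 sites lay between cluster genes and beyond 250 kb of either, at IRX4 −324 kb and IRX5 −279 kb. Having 3 or more sites was shared with 8.71% of other genes. The median over the 7 members was 1 site, beside 0 over all protein-coding genes.

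**Figure D1:**
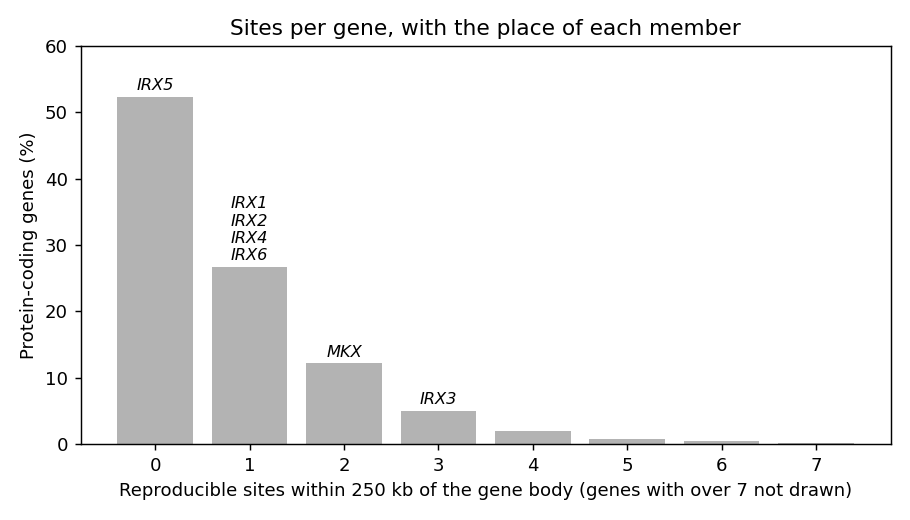
Share of protein-coding genes (y axis, percent) by the number of reproducible MEIS1/2 sites within 250 kb of the gene body (x axis), with each member written above the bar of its own count. IRX5 stands in the bar of genes with 0 sites (52.3% of genes), 4 members in that with 1 (26.7%), MKX in that with 2 (12.2%) and IRX3 in that with 3 (5.03%).

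Gene length and neighbours both bear on such counts, so each member was set beside the 200 protein-coding genes nearest to it in body length. IRX3 stood highest, since only 8 of its 200 comparison genes, or 4.0%, had as many sites or more. As many or more were found for 21.5% of the genes compared with MKX, 36.0% for IRX6, 38.5% for IRX4 and 39.5% for both IRX1 and IRX2. At 0 sites, IRX5 was like 54.5% of its comparison genes. The high place of IRX3 depended on the comparison. No other canonical protein-coding TSS lay in its extended body. Among the 614 genes of which that was also true, 24.1% had 3 sites or more and 58.1% had at least 1.

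None of the members had a reproducible site within 5 kb of its canonical TSS, which 2.42% of other genes had. A peak called in both replicates within 5 kb was found for IRX5 alone, beside 13.9% of other genes. The nearest site to a start was that of MKX at 43.7 kb, followed by IRX3 at 88.2 kb, IRX6 at 176 kb, IRX1 at 197 kb, IRX4 at 214 kb, IRX2 at 218 kb and IRX5 at 279 kb. Over the 11 sites the median distance to the nearest canonical protein-coding TSS was 197 kb, compared with 100 kb over the 5158 other sites. None lay within 5 kb of such a TSS, compared with 8.45% of the others. Both measures depend on how few genes the chosen stretches hold, and no comparison with sites in like stretches was made. The rule also bears on which gene is nearest, since no other canonical protein-coding TSS lay in the extended bodies of IRX1, IRX2, IRX3 and IRX5. With sites chosen in this way, the nearest canonical protein-coding TSS was that of a member for 10 of the 11. With every transcript start of protein-coding genes this held for 7 sites, since FTO was then nearest to IRX3 +236 kb and IRX3 +115 kb and ODAD2 to MKX −112 kb, and with every transcript start of genes of every biotype it held for 1.

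**Figure D2:**
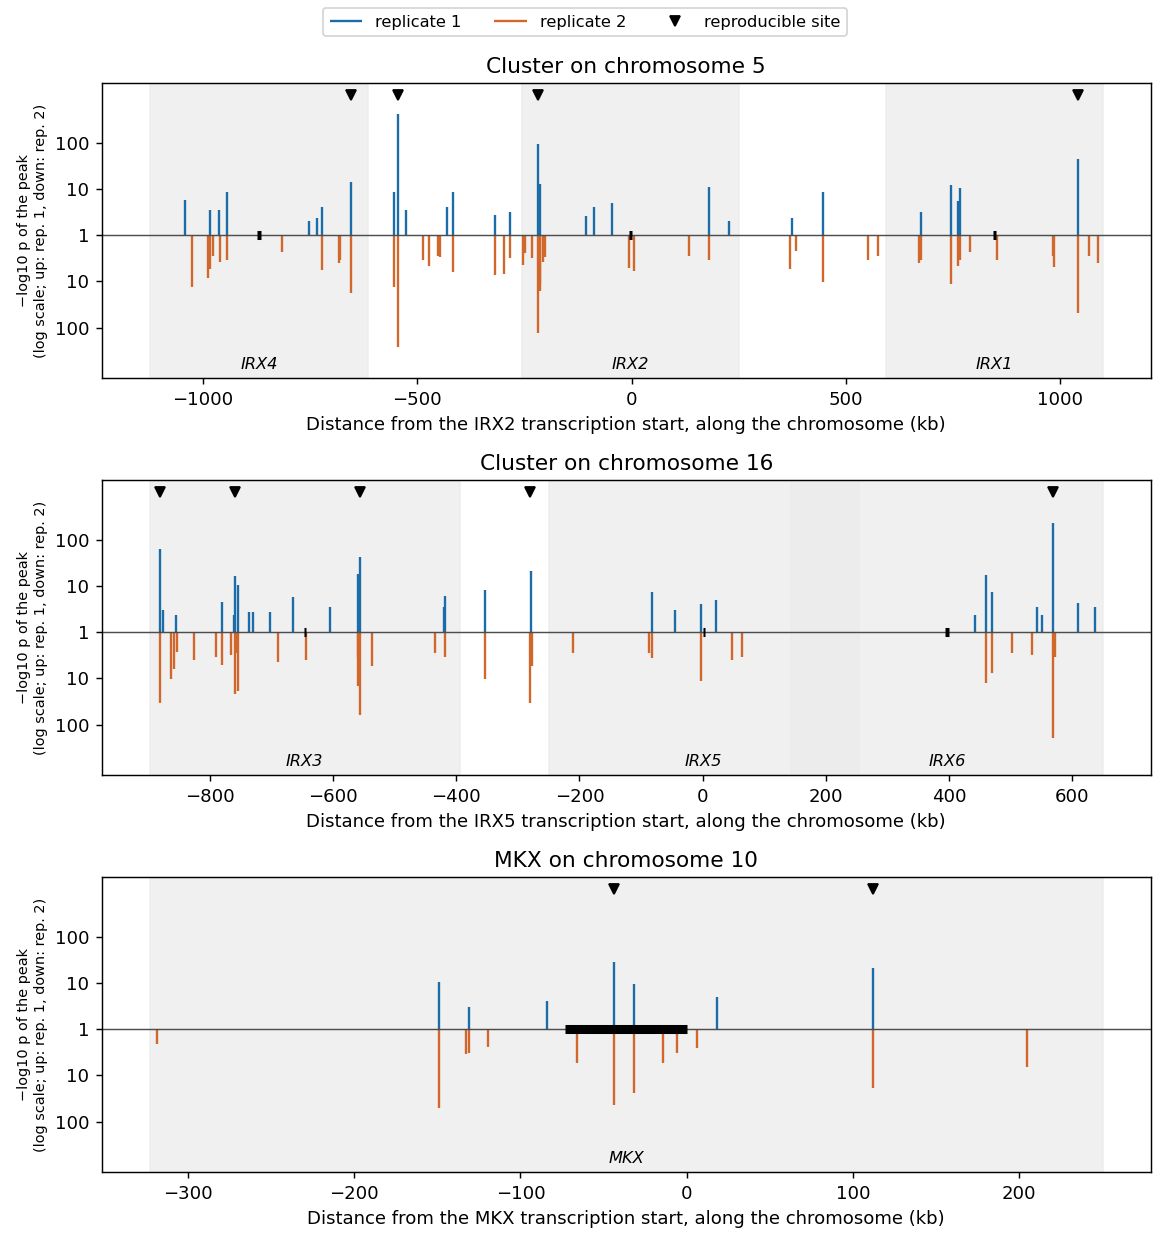
Peaks of replicate 1 (blue, upward) and replicate 2 (orange, downward) at the 3 loci, drawn at their distance along the chromosome from the start of IRX2, IRX5 or MKX (x axis, kb) with a height given by −log10 p (y axis, log scale). Black bars on the zero line are gene bodies, grey bands are gene bodies extended by 250 kb, and triangles mark the 11 reproducible sites; the tallest peaks stand between IRX4 and IRX2 and beyond IRX6, and the stretch between IRX5 and IRX6 is nearly empty.

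Between IRX4, a gene of the heart ventricle, and IRX2, which is active in the developing hindbrain, an interval of 859 kb held 3 sites, 16 peaks in replicate 1 and 23 in replicate 2. Of genome tiles of the same length, 23.5% held as many sites or more. IRX4 −324 kb (chr5:2205876-2207347) was the strongest site of the whole group and ranked 211 of 5169 by −log10 p. Replicate 1 gave it a −log10 p of 423 and replicate 2 one of 270, with fold enrichments of 37.4 and 46.1. It lay outside every protein-coding gene and too far from both IRX4 and IRX2 to count in the extended body of either. A weaker peak was called in both replicates 314 kb upstream of IRX4, with −log10 p of 8.97 and 13.0.

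IRX4 −214 kb (chr5:2096768-2097580) was the weakest of the 11 sites and ranked 4856. Its −log10 p was 14.5 and 17.8 and its fold enrichment 4.35 and 7.43. This was the one site counted for IRX4, and it did not stay in the count when only the strongest peaks of either replicate were taken. IRX4 had 8 and 11 peaks in its extended body, with 5 called in both replicates. In contrast to the other cluster genes on chromosome 5, 2 other canonical protein-coding TSSs lay in this stretch. Some of these peaks were therefore nearer to another gene. An example was the peak 74.3 kb downstream of IRX4, with −log10 p of 8.71 and 3.38. It lay in intron 2 of NDUFS6, a subunit gene of mitochondrial complex I, and 7.27 kb from the canonical TSS of that gene.

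IRX2 +218 kb (chr5:2533274-2534274) ranked 756 and was strong in both replicates. Its −log10 p was 95.4 and 134, and its fold enrichment 11.5 and 26.8. A second peak lay 215 kb downstream of the gene, with −log10 p of 12.8 and 16.2, so that this stretch held neighbouring peaks of very unequal strength. IRX2 had 7 peaks in replicate 1 and 12 in replicate 2. The peak nearest to its TSS in replicate 2, 5.02 kb downstream, had a −log10 p of 5.09 and no counterpart in replicate 1, whose nearest peak was 44.8 kb away with a −log10 p of 4.97.

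No reproducible site lay in the 844 kb between IRX2 and IRX1, which was also the case for 35.7% of tiles of that length. The interval held 8 peaks in replicate 1 and 14 in replicate 2. Per megabase this came to 9.48 and 16.6 peaks, beside 13.0 and 16.7 over the genome. Among these peaks were one 181 kb upstream of IRX2 with −log10 p of 11.1 and 3.38, and one 97.8 kb upstream of IRX1 with 12.6 and 11.1. Both were called in the 2 replicates but were not in the list of reproducible sites.

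IRX1, a neural plate and lung gene, closes the cluster, and its reproducible site lay downstream, whereas 4 of its 5 peaks in replicate 1 and 6 of its 12 in replicate 2 lay upstream. IRX1 +197 kb (chr5:3791886-3793036) ranked 1640, with −log10 p of 46.2 and 48.1 and fold enrichment of 8.47 and 12.5. The replicates were closer in −log10 p at this site than at any other of the 11. All 5 peaks that replicate 1 had within 250 kb of IRX1 were also called in replicate 2, which had 12. Outside the 250 kb limit, 3 further reproducible sites followed downstream, at 263 kb (−log10 p 80.8 and 93.8), 276 kb (97.6 and 127) and 388 kb (47.0 and 42.4). These were not counted for IRX1, but 2 of them were stronger in both replicates than the site that was.

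On chromosome 16 the sites gathered around IRX3, which helps to divide ventral progenitor domains of the spinal cord. IRX3 +236 kb (chr16:54082488-54085149) lay in intron 8 of FTO, an RNA demethylase gene, and had −log10 p of 63.4 and 33.8 with fold enrichment of 9.87 and 10.1. IRX3 +115 kb (chr16:54204935-54206083) lay between FTO and IRX3 and was weak, with −log10 p of 16.7 and 21.6 and fold enrichment of 4.68 and 7.87. IRX3 −88 kb (chr16:54407823-54409638) had −log10 p of 44.2 and 61.9 with fold enrichment of 8.25 and 17.3. The sites thus stood on both sides of the gene, and the replicates did not agree on which was the strongest. Replicate 1 gave the highest −log10 p to IRX3 +236 kb, and replicate 2 to IRX3 −88 kb.

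IRX3 also had the most peaks, with 16 in replicate 1 and 19 in replicate 2, of which 7 in each were called in both. Of its comparison genes of like length, 5.5% had as many peaks or more in replicate 1 and 4.0% in replicate 2, with medians of 6 and 7. This comparison matched length only, and peak counts were not set beside genes with as few neighbours. Next to the sites lay weaker peaks found in both replicates. One at 84.0 kb upstream had −log10 p of 18.9 and 14.8 and stood 0.018 kb from the start of the long noncoding RNA LINC02140, and one at 110 kb downstream had 10.5 and 18.6. At the promoter itself replicate 2 had a single weak peak, 0.438 kb downstream of the TSS, with a −log10 p of 4.01 and a fold enrichment of 3.03. Replicate 1 had no peak there, and its nearest was 21.0 kb away.

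FTO neighbours IRX3, and its body (chr16:53735604-54192424) held 5 reproducible sites, with 14 peaks in replicate 1 and 24 in replicate 2. The median over 200 genes of like length was 1 site in the body, and 3.5% of them had 5 or more. Besides the site counted for IRX3, the sites lay 560 kb (−log10 p 83.8 and 71.0), 372 kb (13.0 and 25.7), 366 kb (71.7 and 101) and 349 kb (29.3 and 71.7) downstream of IRX3, and their nearest protein-coding TSS was that of FTO. The first was in intron 1 of FTO, the next pair in intron 7 and the last in intron 8. At an extension of 500 kb IRX3 had 7 sites, and none of its 200 comparison genes had as many. At 1 Mb it had 8 sites, and 3.5% of its comparison genes had as many or more. Both comparisons matched length only, and at 250 kb 24.1% of genes with as few neighbours reached the count of IRX3. At 500 kb the share of like-length genes with as many or more was 8.0% for IRX1, with 4 sites, and 32.5% for IRX4, with 2. It was 43.5% for MKX, with 2 sites, and 57.0% for IRX6, 60.5% for IRX2 and 65.5% for IRX5, with 1 each. Compared with 250 kb, the share at 500 kb was thus smaller for IRX1, IRX3 and IRX4 and larger for IRX2, IRX6 and MKX. IRX5 cannot be compared in this way, because it had no site at 250 kb and every gene has as many or more.

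The interval of 644 kb between IRX3 and IRX5 held 2 sites, 10 peaks in replicate 1 and 13 in replicate 2, and 31.1% of tiles of that length held as many sites or more. Besides IRX3 −88 kb it contained IRX5 −279 kb (chr16:54684651-54686292), which ranked 3412. The −log10 p of that site was 21.7 and 33.7 and its fold enrichment 4.44 and 11.1. IRX5, known from the retina and the heart, had the fewest peaks of the members in replicate 1, 4, and 6 in replicate 2, of which 2 in each were called in both. The strongest in replicate 1 lay 82.5 kb upstream of IRX5, with −log10 p of only 7.56 and 3.58. The strongest in replicate 2 was a different peak, 2.7 kb upstream, with 4.05 and 11.1.

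The peak closest to IRX5 was the only one called in both replicates within 5 kb of a member's TSS. Its summit lay 2.68 kb upstream of IRX5 in replicate 1 and 2.70 kb in replicate 2, where it stood 0.022 kb from the start of CRNDE, a long noncoding RNA gene transcribed away from IRX5. It was weak, with −log10 p of 4.05 and 11.1 and fold enrichment of 2.34 and 5.51, and was not in the list of reproducible sites.

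Between IRX5 and IRX6, a gene of retinal interneurons, the 390 kb interval held 0 sites, 1 peak in replicate 1 and 2 in replicate 2, the sparsest of the 4 intervals. This is 2.57 and 5.13 peaks per megabase. As many peaks or more were found in 92.5% of tiles of that length for replicate 1 and 89.0% for replicate 2, and 58.1% of the tiles held 0 sites. All of the peaks counted for IRX6, 8 in replicate 1 and 6 in replicate 2, lay downstream of the gene.

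IRX6 +176 kb (chr16:55533296-55534606) ranked 308, with −log10 p of 242 and 198 and fold enrichment of 25.2 and 39.7. It was in intron 11 of MMP2, which encodes a secreted gelatinase, and its nearest transcript start was one of MMP2, at 5.22 kb. Among canonical starts the nearest was that of LPCAT2, a lysophospholipid acyltransferase gene, at 8.92 kb, and by that measure this was the one site of the 11 that was nearest to a gene outside the group. The next strongest peak of IRX6, 66.8 kb downstream with −log10 p of 17.5 and 12.6, lay 1.3 kb from a start of an MMP2 transcript and was not in the list, although among canonical starts that of IRX6 was the nearest. In all, 3 other canonical protein-coding TSSs lay in the extended body of IRX6.

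MKX, a regulator of tendon development, was the only member with a site in its own body. That body was also by far the longest, at 73187 bp, beside 9824 bp for IRX4, the longest of the IRX genes. MKX +44 kb (chr10:27990639-27991481) lay in intron 5 and ranked 2569, with −log10 p of 29.4 and 43.4 and fold enrichment of 6.43 and 12.3. MKX −112 kb (chr10:28146069-28147140) lay in intron 19 of ODAD2, a gene for docking of dynein arms in cilia, with −log10 p of 21.6 and 18.9 and fold enrichment of 5.08 and 6.66. MKX had 7 peaks in replicate 1 and 13 in replicate 2, with 5 called in both. The strongest MKX peak of replicate 2 was absent from the list of reproducible sites. It lay 149 kb downstream of MKX and 92.7 kb from RAB18, a small GTPase gene, and had a −log10 p of 50.3 and a fold enrichment of 14.8, but only 10.8 and 3.36 in replicate 1. Another peak in intron 5, 31.7 kb downstream of the start, had −log10 p of 9.57 and 24.2.

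**Figure D3:**
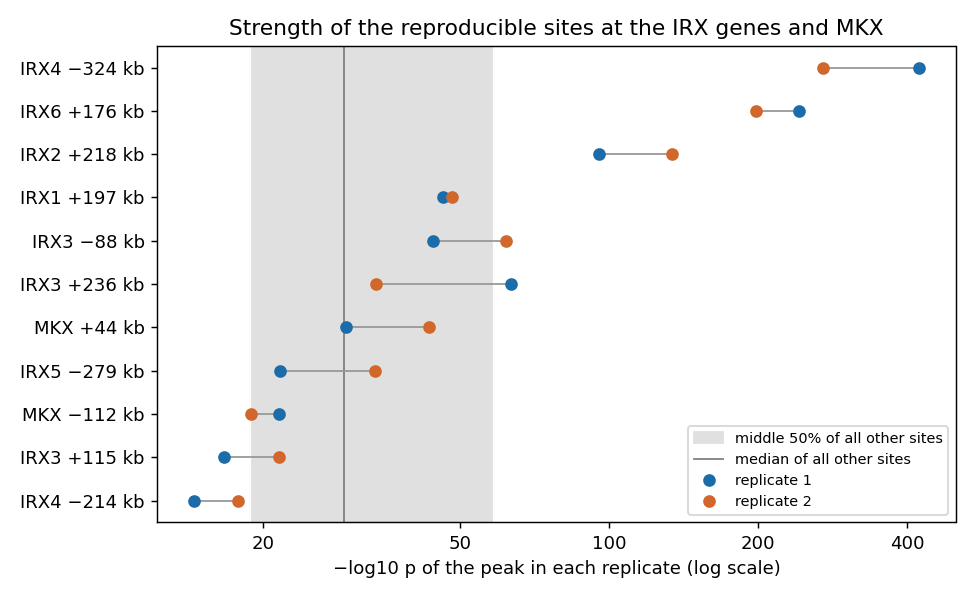
Peak strength of the 11 reproducible sites, as −log10 p in replicate 1 (blue) and replicate 2 (orange) on a log axis, joined by a line for each site. The grey band spans the middle 50% of the other 5158 sites (19.0 to 58.1) and the vertical line is their median (29.2), both from the merged value in the list; IRX4 −324 kb, IRX6 +176 kb and IRX2 +218 kb lie to the right of the band in both replicates.

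In strength the 11 sites ran from a merged −log10 p of 14.5 to 270, within the 12.5 to 3008 of the other sites. The median merged −log10 p was 33.8, compared with 29.2 for the other sites, and the middle 50% of the values, 20.3 to 70.8, overlapped widely with the 19.0 to 58.1 of the others. IRX4 −324 kb and IRX6 +176 kb were among the strongest 10% of the list, whereas IRX4 −214 kb stood at percentile 5.97. All 11 sites had a higher fold enrichment in replicate 2, as did 97.4% of the other sites, with medians of 8.25 and 12.3 for the members and 6.38 and 11.5 elsewhere. The study describes alternative washes after the immunoprecipitation, which replicate received which is not given in the sources used here, and the part of this in the difference between replicates was not tested. By −log10 p, 7 sites were stronger in replicate 2 and the other 4 in replicate 1. Of the 11 sites, 7 passed an IDR of 0.001, or 63.6%, beside 60.4% of the others. Median GC content around the summit was 43.4%, beside 42.0%.

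Of the 66 peaks of replicate 1, 38 overlapped a peak of replicate 2, or 57.6% (95% Wilson interval 45.6 to 68.8), compared with 49.0% elsewhere in the genome. Of the 97 peaks of replicate 2, 39 overlapped one of replicate 1, or 40.2% (31.0 to 50.2), compared with 38.0% elsewhere. Both genome-wide shares lay within these intervals, which cover the number of peaks alone. The larger number of peaks in replicate 2 thus consisted mostly of peaks without a partner. Median −log10 p was 4.97 and 4.01 over the members' peaks and 4.78 and 4.68 over the others, so that most peaks counted here were weak.

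Sequence around the summits was searched in windows of 500 bp on both strands. The MEIS core TGACAG was found at 6 of the 11 sites, or 54.5% (95% Wilson interval 28.0 to 78.7), compared with 58.3% of the other 5158 sites. The composite PBX-MEIS string, which contains TGACAG, was found at IRX4 −324 kb alone, compared with 4.92% of the others. A string of the type bound by Iroquois proteins themselves, ACATGT, lay at 2 sites, or 18.2%, beside 16.6%. The homeodomain core TAATT lay at 8 sites (72.7%, beside 70.2%), a SOX string, ACAATG or ACAAAG, at 9 (81.8%, beside 71.0%), and the TEAD string GGAATG at 4 (36.4%, beside 38.2%). With 11 sites each of these shares has a wide interval, and all of the shares among other sites lay inside the members' intervals.

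**Figure D4:**
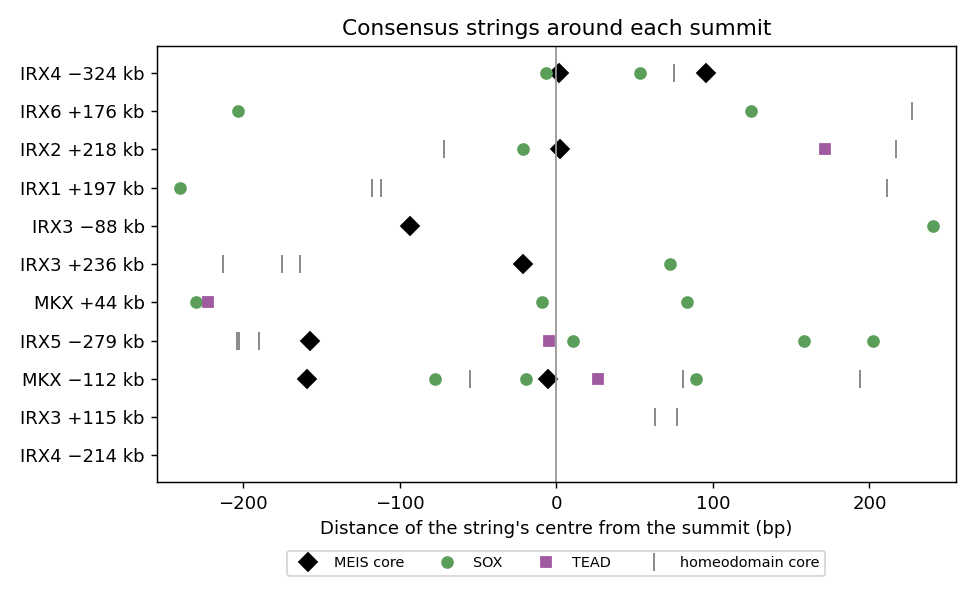
Position of consensus strings in the 500 bp around the summit of each of the 11 sites (x axis, distance of the string's centre from the summit in bp), with sites ordered from the weakest at the bottom to the strongest at the top. Black diamonds are the MEIS core string, which stands within 30 bp of the summit at IRX4 −324 kb, IRX2 +218 kb, IRX3 +236 kb and MKX −112 kb; circles are SOX, squares TEAD and ticks homeodomain core strings, and IRX4 −214 kb holds none of these.

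At 4 of the sites the core string lay in the 60 bp around the summit, or 36.4%, compared with 34.4% of the other sites. It was 21.5 bp from the summit at IRX3 +236 kb, 93.5 bp at IRX3 −88 kb and 158 bp at IRX5 −279 kb. At IRX5 −279 kb a TEAD string was centred 4.5 bp from the summit, and at IRX4 −324 kb a SOX string 6.5 bp from it. The sites without TGACAG, other than MKX +44 kb, held shorter pieces of the composite string. The pieces TGACA, which lies within TGACAG, and TGATTGA, which overlaps it in the composite, were chosen after the sequences had been seen. The 60 bases around the summit are shown for the 4 such sites, on the plus strand of GRCh37 at chr16:55534034-55534093 for IRX6 +176 kb, chr16:54205682-54205741 for IRX3 +115 kb, chr5:2097177-2097236 for IRX4 −214 kb and chr5:3792538-3792597 for IRX1 +197 kb, with capitals for TGACA and TGATTGA on either strand.
IRX6 +176 kb: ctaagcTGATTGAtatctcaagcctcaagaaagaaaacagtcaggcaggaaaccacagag
IRX3 +115 kb: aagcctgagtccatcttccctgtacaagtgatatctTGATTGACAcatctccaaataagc
IRX4 −214 kb: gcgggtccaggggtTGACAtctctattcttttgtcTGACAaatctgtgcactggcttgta
IRX1 +197 kb: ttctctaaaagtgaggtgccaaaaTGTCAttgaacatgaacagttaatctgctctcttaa

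TGACA was present in the 60 bp at 7 of the 11 sites (63.6%) and at 61.8% of the others. TGATTGA was present at 3 sites, IRX4 −324 kb, IRX3 +115 kb and IRX6 +176 kb, or 27.3%, beside 6.44% of the others. As the string was picked from these sequences, its share is a description only. MKX +44 kb, in the intron of MKX, held neither piece in its 500 bp. Of the 4 sites in FTO beyond those counted for IRX3, the one in intron 1 held 5 occurrences of TGACAG in its 500 bp, those 372 kb and 366 kb downstream of IRX3 held 1 each, and that at 349 kb held 0. The string lay 20.5 bp from the summit at 372 kb and 3.5 bp at 366 kb. The last is the FTO site with the highest −log10 p in replicate 2, though not in replicate 1, and its plus strand at chr16:53955068-53955127 is shown with the reverse complement of TGACAG in capitals.
IRX3 +366 kb: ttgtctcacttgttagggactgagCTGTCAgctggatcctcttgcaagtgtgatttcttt

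At 4 of the 11 sites, namely IRX4 −324 kb, IRX2 +218 kb, IRX3 +115 kb and IRX3 −88 kb, another peak called in both replicates had its summit within 10 kb. This was 36.4% of the sites, beside 27.5% of the other sites of the list.

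The members were also set beside 18 other genes known for patterning the neural tube, among them PAX, NKX, DBX, EN and MSX genes. Of these, 13 had at least 1 reproducible site within 250 kb (72.2%), beside 47.7% of all other protein-coding genes, with a median of 1 site as among the members. The 18 genes were not matched for length or neighbours. Among genes with as few neighbours as single members, 56.5% to 59.1% had a site. GLI3, a transducer of hedgehog signals, and PAX6, a factor of neural progenitors, had 4 sites each. DBX2 and OLIG2, which also mark ventral progenitor domains, had 3 each, the same count as IRX3.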

How the data were processed

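MEIS1/2 ChIP-seq peaks of 2 MEIS ChIP samples and their list of reproducible sites were analysed; the 2 Input samples entered through the authors' peak calling alone. The authors trimmed paired reads of 36 bp (cutadapt 1.16), mapped them to GRCh37 (Bowtie2 2.3.0; mapping quality of at least 30, SAMtools 1.2), removed duplicates (Picard 2.15.0), called peaks with MACS2 at p 0.01 and ran IDR 2.0.3. The version of MACS2 and the depth of each library were not given in the sources used here. Reads in near-identical repeats are lost to the mapping filter. The deposited peak lists give fold enrichment over input (a linear ratio), −log10 p and −log10 q; the deposited list of sites gives a scaled IDR score and the merged −log10 p, and its 8 columns of values per replicate were not used. A site's value in a replicate is that of its strongest overlapping peak.

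Summits were counted in bodies extended by 250 kb (GENCODE 44 on GRCh37), beside the 200 genes nearest in length, genome tiles of the interval's length with at least 95% called bases, and genes with as few neighbours. Peaks sharing 1 bp were called in both. Strings were searched on both strands in 500 bp. All members and all their sites are named, with FTO, genes nearest to or holding a site, and the strongest peaks; of the patterning list, the genes with most sites, and its genes without a site are not reported here by name. Members and lists were chosen with earlier results of these data known. No test was run, since peak lists hold no counts. Counting was tested on simulated data (Python 3.11.15, pandas 2.3.3, numpy 2.4.6, scipy 1.17.1). Alternatives varied the extension, thresholds, overlap, comparison genes, annotation, window and replicates.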

Additional observations from a re-analysis of the deposited data

How the results depend on the processing

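Of 186 alternative values, 111 stayed within 1.5 times the reported value or its interval; 52 of the 75 that moved concern single genes or intervals. At an extension of 100 kb, 2 members had a site, the sites numbered 6, and 19.0% rather than 40.9% of genes of like length had one; at 500 kb there were 17 sites and a share of 62.5%, and at 1 Mb 22 and 84.4%. Among genes with as few neighbours the share was 56.5%. At an IDR of 0.001 or less 7 sites remained, 3 in the intervals, with 25% of genes of like length and 8 patterning genes having one; IRX4 then had 0 and MKX 1. Taking as many of the strongest peaks of a single replicate left 5 members with a site and 11 sites in all, with 37.6% to 43.4% of genes of like length having one; IRX4 had 0 sites either way, IRX6 had 2 without replicate 2, and MKX had 3 without replicate 1, a count that 6.0% of its comparison genes reached, rather than 21.5%. At −log10 p of at least 5 replicate 1 had 32 peaks and replicate 2 had 42, of which 71.9% and 57.1% were shared; at a q of 0.05 or less they had 41 and 55, and 50.9% of the latter were shared. With summits within 100 bp 34.8% and 23.7% were shared. Counting every transcript start of genes of every biotype left 1 site nearest to a member. No paired analysis was possible because no test was run and no values of single Input samples were used. Depth is unknown, so an absent site was not detectable at this depth rather than shown to be lacking.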
